A study of Homo sapiens with 24 samples.

Results

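ATF3 is a transcription factor of the basic leucine zipper (bZIP) family that many kinds of stress induce. All catalog probes that the array design names ATF3 were taken, which gave 1 gene of the 15041 gene names in the mRNA category and 4 of its 17448 probes. The cells were MRC5, a line of human fetal lung fibroblasts. Control cells received no peroxide and the oxidative stress (OS) cells 0.2 mM H2O2 for 2 h. From each condition, whole-cell (total) RNA was labelled beside 3 pools of polysome gradient fractions: an untranslated pool (fractions 1 to 9), a low pool (fractions 10 to 14) and a high pool (fractions 15 to 23), in which a message carries more ribosomes the further it sediments. The 8 groups held 3 arrays each, 24 arrays in all, on 3 slides with 1 array of every group on each slide. Each preparation was independent according to the methods, and both conditions come from 1 cell line.

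ATF3 binds DNA as a homodimer or paired with other bZIP proteins such as those of the JUN group, and depending on its partner it represses or activates transcription. Its message is scarce in resting cells and short-lived. In the integrated stress response, kinases that phosphorylate the initiation factor eIF2 slow bulk translation while ATF4 is translated, and ATF4 is known to raise ATF3 transcription. Stress-activated MAP kinases are a further known route to it.

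The fibroblast label was checked with markers. Of the 10 fibroblast markers chosen, 5 had a probe on the array. All 5 were well above background on all 24 arrays, with mean log2 signals from 9.55 to 16.68. Of 4 epithelial markers 2 had a probe, EPCAM above background on 8 arrays and CLDN4 on 23. CDH5 and VWF of the endothelial markers were above background on 20 arrays and on 1 array, and PTPRC of the blood markers on 23 at its brightest probe and on 1 array, of the OS low pool, at each of its other 2. OS low replicate 3 stood apart from the others, with 95.4% of mRNA probes and 93.3% of lncRNA probes above background, and ATF3 results of the low pool are given with and without it, the latter from arrays normalized without it.

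The probes lie on chromosome 1 (GRCh37) in the order of their distance along the gene, and each probe has 60 bases. The first 30 are shown for each, since the results differ by probe.
A_33_P3214105: tttgccatccagaacaagcacctctgccac
A_33_P3214096: aagaagagggtctgcattttcctaaaccca
A_24_P33895: tccagaagatgagagaaacctctttatcca
A_23_P34915: gatgtcaatagcattgtttttgtcatgtag
A_33_P3214105 covers chr1:212788502-212788561 and A_33_P3214096 covers chr1:212792519-212792578. A_24_P33895 covers chr1:212792837-212792896 and A_23_P34915, the farthest along the gene, covers chr1:212793856-212793915. Together they list 6 RefSeq transcripts, all 6 of them under ATF3 in the RefSeq table (GRCh38.p14). A_33_P3214096 lists 2 of these and leaves out NM_001674, while each of the other probes lists 4 with NM_001674 among them. The lists overlap: NM_001040619 is listed by A_33_P3214096 and also by A_24_P33895 and A_23_P34915, but not by A_33_P3214105. No probe of another gene name has the same sequence.

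In total RNA, ATF3 was far higher upon OS at 3 of its 4 probes. A_23_P34915 read 11.67, 11.21 and 11.11 on the log2 scale in the 3 control replicates and 16.20, 16.24 and 16.04 in the 3 OS replicates. A_24_P33895 read 7.29, 6.80 and 6.84 in control cells and 11.99, 11.74 and 11.56 upon OS. A_33_P3214105 read 8.90, 8.35 and 8.25 in control cells and 13.25, 13.24 and 13.11 upon OS. At each of these probes every OS array lay above every control array. The fourth probe, A_33_P3214096, read 7.88, 7.32 and 7.06 in control cells and 8.37, 7.82 and 8.06 upon OS, so that its groups overlapped.

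The differences in total RNA were 4.83 ± 0.23 (SE) at A_23_P34915 (adjusted p = 5.87e-11, limma), 4.79 ± 0.24 at A_24_P33895 (adjusted p = 1.05e-10, limma) and 4.70 ± 0.25 at A_33_P3214105 (adjusted p = 2.47e-10, limma). As ratios these are 28.4-fold (95% interval 20.4 to 39.6), 27.7-fold (19.5 to 39.2) and 25.9-fold (18.1 to 37.3). The test called 3 of the 4 ATF3 probes higher, against 4.70% of all tested lncRNA and mRNA probes, and 0 lower, against 3.26%. These shares depend on OS low replicate 3, without which they were 8.52% and 7.86%, and on the settings. They were 4.49% and 1.90% at the 75th percentile, 3.86% and 6.85% with no normalization, and when only the arrays compared were fitted 2769 of the 22366 probes were called higher and 3577 lower. A_33_P3214096 differed by 0.66 ± 0.32, with an interval from -0.02 to 1.34 (adjusted p = 0.308, limma), and with slide as a block it passed the threshold of 0.05 (adjusted p = 0.0339, limma). Within the slides its difference was 0.49, 0.49 and 1.00, and at the other 3 probes it lay between 4.35 and 5.03. Of 10630 mRNA probes tested, 6 had a change as high as that of A_23_P34915, itself included. Equal amounts of RNA were labelled (100 ng), so every value is relative to the RNA of its own sample, and more cells that express ATF3 cannot be told apart from more ATF3 RNA in each cell.

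**Figure D1:**
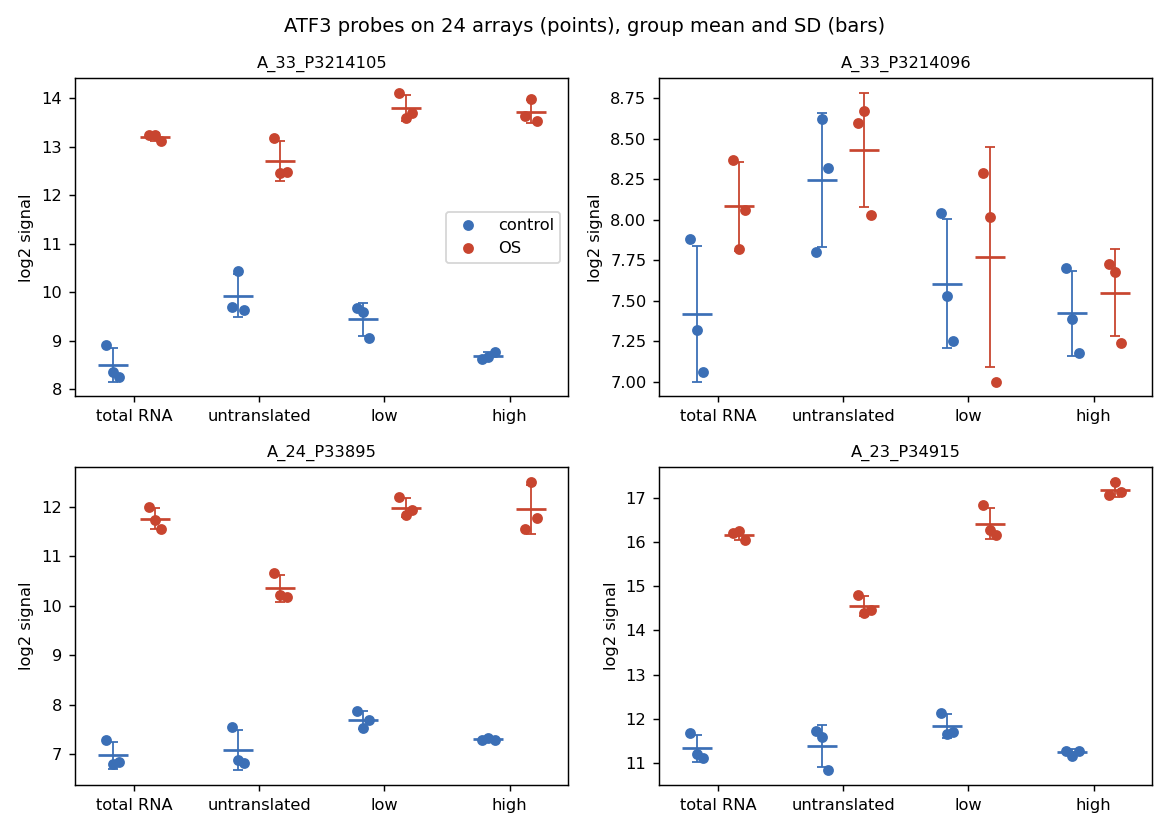
Log2 signal of the 4 ATF3 probes (one panel each, with its own vertical axis) on all 24 arrays, as points with the group mean and SD, for control (blue) and OS (red). At A_33_P3214105, A_24_P33895 and A_23_P34915 all OS points lie above all control points, while at A_33_P3214096 they overlap.

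In each of the 3 pools ATF3 was higher upon OS at the same 3 probes, relative to the RNA labelled from that pool. After separate quantile normalization the smallest differences were in the untranslated pool. At the 75th percentile this order turned at A_23_P34915, where the low pool changed less than the untranslated pool (-0.56). In the untranslated pool A_23_P34915 read 11.72, 11.59 and 10.83 in control cells and 14.80, 14.40 and 14.46 upon OS. In the low pool it read 12.14, 11.66 and 11.69 in control cells and 16.83, 16.27 and 16.16 upon OS. In the high pool it read 11.28, 11.16 and 11.28 in control cells and 17.06, 17.37 and 17.13 upon OS. At this probe no control array overlapped an OS array in any pool.

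A_24_P33895 read 7.54, 6.87 and 6.81 in control untranslated RNA, 7.87, 7.52 and 7.68 in control low and 7.28, 7.33 and 7.29 in control high. Upon OS it read 10.67, 10.22 and 10.17, then 12.19, 11.83 and 11.93, and 11.55, 12.51 and 11.78, so that every OS array lay above every control array here too. A_33_P3214105 read 9.70, 10.43 and 9.64, then 9.68, 9.58 and 9.05, and 8.62, 8.67 and 8.76 in the control pools. Upon OS it read 13.17, 12.46 and 12.47, then 14.11, 13.59 and 13.69, and 13.64, 13.99 and 13.53, again with no overlap. A_33_P3214096 read 7.80, 8.62 and 8.32, then 8.04, 7.53 and 7.25, and 7.70, 7.39 and 7.18 in the control pools. Its OS values were 8.60, 8.67 and 8.03, then 8.29, 8.02 and 7.00, and 7.73, 7.68 and 7.24, which overlapped the control values in all 3 pools.

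At A_23_P34915 the difference was 3.17 ± 0.22 for untranslated RNA (adjusted p = 2.76e-08, limma), 4.59 ± 0.23 for the low pool (adjusted p = 7.75e-10) and 5.95 ± 0.23 for the high pool (adjusted p = 1.09e-11). These are ratios of 9.01, 24 and 61.7. They depend on the settings: over the 36 tried, the log2 differences ran from 2.88 to 3.60, 3.04 to 4.76 and 4.82 to 6.05. A_24_P33895 gave 3.28 ± 0.23, 4.29 ± 0.24 and 4.65 ± 0.24, and A_33_P3214105 gave 2.77 ± 0.24, 4.36 ± 0.25 and 5.04 ± 0.25, in the same order of pools, with adjusted p from limma of at most 3.74e-07. Of the 4 probes, 3 were thus called higher and 0 lower whichever pool was taken. Among all tested probes 11.2% were called higher and 10.4% lower for untranslated RNA, 3.56% and 4.13% for the low pool, and 4.13% and 1.88% for the high pool. With OS low replicate 3 left out these shares were 17.8% and 19.7%, 5.87% and 3.64%, and 8.78% and 5.14%. At the 75th percentile they were 1.80% and 0.253%, 2.55% and 11.9%, and 1.68% and 0.0765%. When only the arrays compared were fitted, they were 0.163% and 0.0129% for the low pool, with the 3 ATF3 probes still called. A_33_P3214096 differed by 0.19 ± 0.32, 0.17 ± 0.32 and 0.13 ± 0.32, and none of these passed the test (limma). In the low pool its sign turned with quantile normalization of all probes together (-0.25). The median change of all tested probes in the low pool was -0.38, and -0.04 without OS low replicate 3. Without that array the low pool differences were 4.45 at A_33_P3214105, 0.57 at A_33_P3214096, 4.39 at A_24_P33895 and 4.73 at A_23_P34915.

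**Figure D2:**
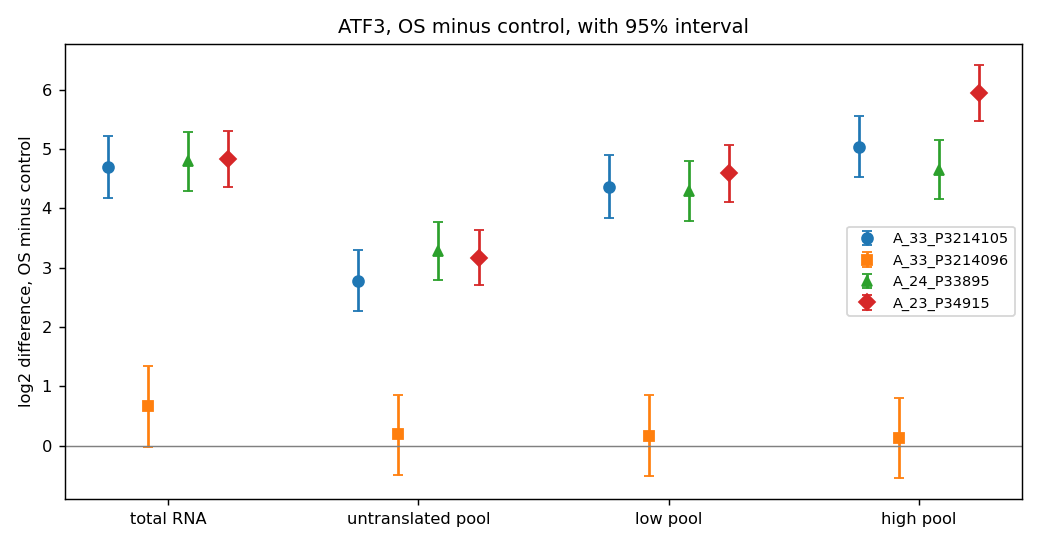
Difference OS minus control (log2, vertical axis) of each ATF3 probe in total RNA and the 3 pools, with its 95% interval. After separate quantile normalization, the smallest differences at A_33_P3214105, A_24_P33895 and A_23_P34915 are those of the untranslated pool, from 2.77 to 3.28. A_33_P3214096 lies near 0 in the pools.

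The probes did not all change alike along the gene. A_33_P3214096 lies 4017 bases from the first probe and 318 bases before A_24_P33895, and its change upon OS was unlike that of the others. The within-array difference between A_33_P3214096 and A_24_P33895 changed upon OS by -4.13 for total RNA, -3.09 for untranslated RNA, -4.13 for low and -4.52 for high polysomes. In each the 3 OS arrays did not overlap the 3 control arrays. The exact two-sided permutation test gave p = 0.1, the smallest that 3 against 3 arrays allow, and adjusted p = 0.15 over the 24 tests, so this test could not pass the threshold. Without OS low replicate 3 the change in the low pool was -3.83, with no overlap.

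Among the other 3 probes, A_24_P33895 and A_23_P34915 differed in their change by -0.04 in total RNA and by 0.11 in the untranslated pool, and the arrays overlapped in both. In the high pool the same pair changed by -1.30 with no overlap (exact permutation p = 0.1, adjusted 0.15), with A_23_P34915 rising more after normalization. A_33_P3214105 and A_23_P34915 changed by -0.91 there, also with no overlap. A_33_P3214105 and A_24_P33895 changed by 0.39 in that pool, again with no overlap. Processed high pool signals in control cells were 611, 737 and 643, then 205, 235 and 183, and 4170, 4500 and 4050, in probe order. Upon OS they were 18500, 21000 and 16700, then 5030, 8380 and 5480, and 114000, 136000 and 111000. In the within-array ratios of these signals all 3 pairs overlapped, so the high pool separations were not present before normalization. In the low pool the 3 pairs overlapped with all arrays. Without OS low replicate 3, A_33_P3214105 and A_23_P34915 (-0.28) and A_24_P33895 and A_23_P34915 (-0.34) did not overlap. In the processed signals of those arrays the first of these pairs overlapped, and the second separated with the opposite sign. There A_24_P33895 read 10500 and 6350 upon OS against 547, 355 and 393, and A_23_P34915 189000 and 127000 against 12700, 7820 and 8040. In total RNA A_33_P3214105 and A_23_P34915 also separated, by -0.13, a smaller amount than in the high pool after the same normalization.

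**Figure D3:**
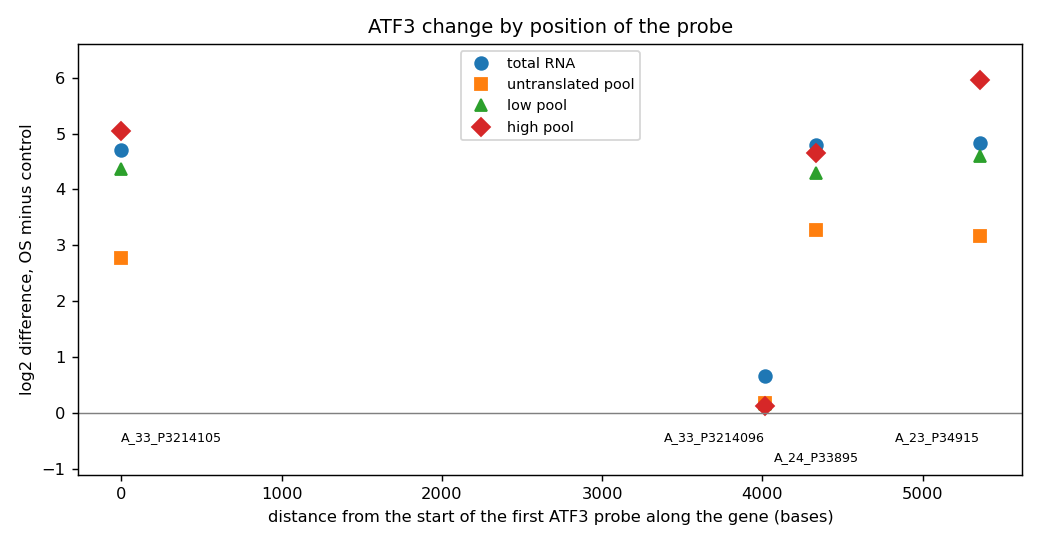
Difference OS minus control (log2, vertical axis) of the ATF3 probes against their distance in bases from the start of the first probe (horizontal axis), in total RNA and the 3 pools. The probe at 4017 bases, A_33_P3214096, has 0.66 in total RNA and 0.13 to 0.19 in the pools, between probes that differ by 2.77 to 5.95.

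The order of the 8 groups was read from their means after separate quantile normalization, with no test. A_23_P34915 was lowest in control high (11.24 ± 0.07, SD, n = 3), control total (11.33 ± 0.30) and control untranslated (11.38 ± 0.48), which overlapped one another. Control low followed at 11.83 ± 0.27 and overlapped control untranslated. The OS groups then rose from untranslated (14.55 ± 0.22) over total (16.16 ± 0.10) and low (16.42 ± 0.36) to high (17.18 ± 0.16), where total and low overlapped and the other neighbours did not. A_24_P33895 and A_33_P3214105 had OS low at the top (11.98 ± 0.19 and 13.80 ± 0.28), with OS high next to it and overlapping. The mean of OS low without its replicate 3 was 16.52 at A_23_P34915, 11.96 at A_24_P33895 and 13.81 at A_33_P3214105. For all 3 probes the step from the highest control group to the lowest OS group was the widest, 2.72, 2.67 and 2.77. A_33_P3214096 had overlapping ranges between all neighbours, from 7.42 ± 0.42 in control total to 8.44 ± 0.35 in OS untranslated. The order depended on the scaling. With no normalization OS low was at the top for all 4 probes (17.13 against 16.87 in OS high at A_23_P34915, overlapping), and OS untranslated no longer lay above all control arrays. At the 75th percentile OS high was at the top and OS total lay above OS low.

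Where ATF3 lay in the gradient depended on how the arrays were scaled. Before scaling, the untranslated arrays had a lower median signal over mRNA probes than the high pool arrays in both conditions. In control cells the high minus the untranslated pool was -1.24 ± 0.25 at A_33_P3214105 (adjusted p = 0.00023, limma) and -0.82 ± 0.32 at A_33_P3214096 (adjusted p = 0.0321), and 0.23 ± 0.24 and -0.14 ± 0.23 at A_24_P33895 and A_23_P34915, which did not pass. The test called 2 of 4 probes lower, against 28.7% of all tested probes, and 35.6% were called higher. With quantile normalization of all probes together A_33_P3214105 gave -0.45 (adjusted p = 0.125, limma) and with no normalization 1.62, so no direction is stated for control cells. Upon OS the difference was 1.02 ± 0.25 at A_33_P3214105, 1.59 ± 0.24 at A_24_P33895 and 2.63 ± 0.23 at A_23_P34915, all 3 called higher, where 34.0% of all tested probes were, and these kept their sign and call under every setting tried. With no normalization, however, 13085 of the 19614 tested probes were called higher and 1454 lower, and in control cells 12352 of 18464 higher and 1615 lower. A_33_P3214096 was called lower (-0.88 ± 0.32, adjusted p = 0.0246, limma), as were 26.0% of all tested probes, but gave -0.03 with quantile normalization of all probes together and 1.54 with no normalization.

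The shift compares the 2 gradients, high minus untranslated upon OS less the same in control cells, which is also the change upon OS in the high pool less that in the untranslated pool. Taken by replicate number, which does not pair the arrays, A_23_P34915 gave high minus untranslated differences of -0.44, -0.44 and 0.44 in control cells and 2.26, 2.97 and 2.66 upon OS. A_33_P3214105 gave -1.08, -1.76 and -0.89 in control cells and 0.47, 1.54 and 1.06 upon OS. A_24_P33895 gave -0.25, 0.46 and 0.48 in control cells and 0.88, 2.29 and 1.61 upon OS. In all 3 probes the OS values lay above the control values without overlap.

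The shift was 2.78 ± 0.32 at A_23_P34915 (adjusted p = 3.13e-05, limma), 2.27 ± 0.35 at A_33_P3214105 (adjusted p = 0.000505) and 1.37 ± 0.34 at A_24_P33895 (adjusted p = 0.014). Toward the high pool 3 of the 4 ATF3 probes were called, against 5.12% of all tested probes, and 0 the other way, against 4.86%. Without OS low replicate 3 these shares were 12.9% and 10.4%, and at the 75th percentile 0.0986% and 0.118%. Within the slides it was 2.57 and 2.65 on slides 1 and 2 and above both on the other at A_23_P34915, 2.28, 2.52 and 2.01 at A_33_P3214105 and 0.46, 1.78 and 1.86 at A_24_P33895. At A_33_P3214096 it was -0.06 ± 0.46 (adjusted p = 0.969, limma). The calls changed with the scaling: with the 75th percentile of each array none of the 3 passed (1.29, 1.99 and 2.01, adjusted p = 0.908, 0.529 and 0.44, limma), with no normalization A_23_P34915 did not (1.23, adjusted p = 0.051), and in the log2 table that the authors deposited A_24_P33895 did not (1.07, adjusted p = 0.0517). The sign was positive at all 3 probes in each of these.

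**Figure D4:**
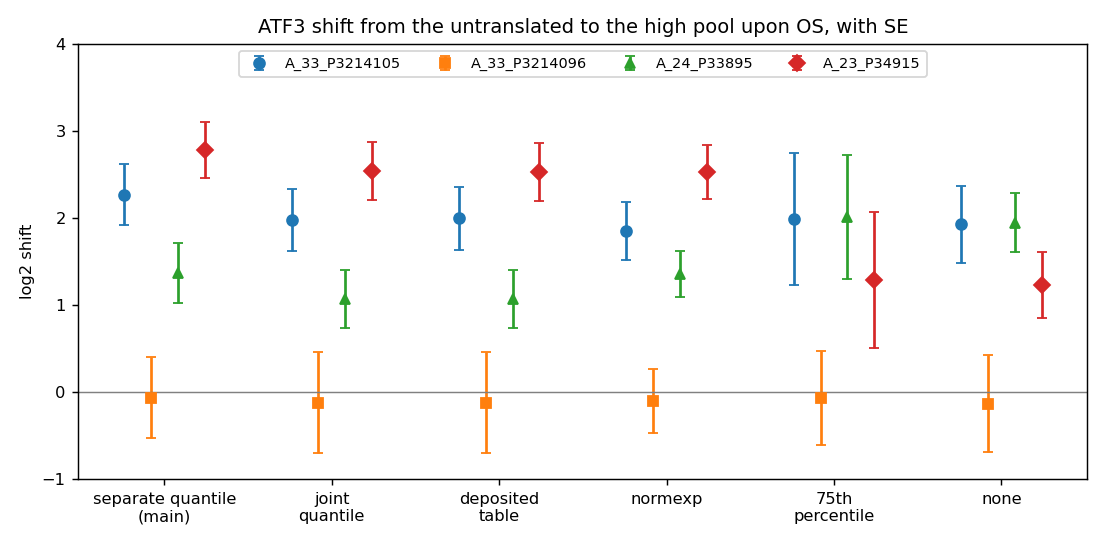
Shift of each ATF3 probe from the untranslated to the high pool upon OS (log2, vertical axis) with its standard error, under 6 ways of scaling the arrays (horizontal axis). A_33_P3214105, A_24_P33895 and A_23_P34915 lie above 0 under all 6, between 1.07 and 2.78, and A_33_P3214096 lies near 0.

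From untranslated RNA to the low pool the shift was 1.59 ± 0.35 at A_33_P3214105 (adjusted p = 0.0274, limma), 1.42 ± 0.32 at A_23_P34915 (adjusted p = 0.03) and 1.01 ± 0.34 at A_24_P33895 (adjusted p = 0.131). The 2 probes called compare with 0.454% of all tested probes called toward the low pool and 1.57% called away from it, or 1.70% and 2.91% without OS low replicate 3 and 0.153% and 0.306% at the 75th percentile. When only the arrays compared were fitted limma called 0 probes in either direction (594 higher and 1335 lower at an unadjusted p under 0.05). Leaving out 1 array at a time ended the call at A_23_P34915 in 6 of 24 fits (lowest 1.22, highest adjusted p = 0.0933, limma) and at A_33_P3214105 in 5 (lowest 1.33, highest adjusted p = 0.0736). The arrays were OS untranslated replicates 2 and 3, control low replicates 2 and 3 and control untranslated replicate 2, and for A_23_P34915 also control untranslated replicate 1. Without OS low replicate 3 the shift was 1.65 at A_33_P3214105, 1.55 at A_23_P34915 and 1.03 at A_24_P33895. At the 75th percentile A_23_P34915 turned to -0.56. From the low to the high pool no ATF3 probe was called, with 1.36 ± 0.32 at A_23_P34915 (adjusted p = 0.0852, limma), 0.68 ± 0.35 at A_33_P3214105 and 0.35 ± 0.34 at A_24_P33895, where 0.117% of all tested probes were called higher and 0.302% lower. Of the 4 probes, 1 (A_23_P34915) had an unadjusted p under 0.05. Over all tested probes the median was 0.40 from low to high and -0.39 from untranslated to low. Both medians moved with OS low replicate 3, to 0.06 and 0.00 without it. With the replicate number as a block A_23_P34915 passed there (adjusted p = 0.0335, limma), while without OS low replicate 3 it had 1.23 (adjusted p = 0.12), A_33_P3214105 had 0.64 and A_24_P33895 had 0.34, and 0.242% of all tested probes were called higher and 0.509% lower.

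In the rule of the methods, the ratios of OS to control are compared between pools on the linear scale, and a difference of at least 1 counts as a shift. A_23_P34915 had a largest difference of 52.7, A_33_P3214105 of 26.1 and A_24_P33895 of 15.3, each with the high pool at the top. A_33_P3214096 had 0.0462 and did not meet it. The differences without OS low replicate 3 were 53.4, 27.1, 16.3 and 0.385. All these ratios follow separate quantile normalization. With no normalization the log2 shift from untranslated to high at A_23_P34915 was 1.23 instead of 2.78. At A_33_P3214096 the ratio of 1.58 in total RNA (unadjusted p = 0.0553, limma) passes the methods' fold of 1.5 and unadjusted p of 0.1 for total RNA. Its log2 difference of 0.66 there was 0.43 with normexp correction and with no normalization, and 0.52 at the 75th percentile. These lie below the fold of 1.5.

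Genes that share a family or a pathway with ATF3 were read through 1 probe each. The coding targets of this array were chosen at random by the study, and 15 of 34 listed bZIP genes had a probe. Of these 15, the test called 3 higher and 1 lower in total RNA, where 4.70% of all tested probes were called higher and 3.26% lower, with a median of 0.13 where the median of all tested mRNA probes was -0.02. JUNB, a partner of ATF3 in the JUN group, read 9.01, 9.08 and 8.85 in control cells and 10.34, 10.30 and 10.27 upon OS, a difference of 1.32 ± 0.18 (adjusted p = 5.34e-05, limma). JUND, of the same group, was higher by 0.75 ± 0.14 and ATF4, the factor of the integrated stress response, by 0.70 ± 0.12, whereas CREB3L2 fell by 0.48 on the log2 scale. At the 75th percentile none of these 4 was called, with JUNB at 1.09 ± 0.42, JUND at 0.50, ATF4 at 0.64 and CREB3L2 at -0.55, and the median of all tested probes moved from -0.03 to -0.12. JUND was also not called with no normalization (0.40, adjusted p = 0.173, limma), nor CREB3L2 with no filter on dim probes (adjusted p = 0.0864, limma).

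In the shift toward the high pool 6 of the 15 bZIP genes were called higher and 1 lower, against 5.12% and 4.86% of all tested probes, with a median of 0.27 against 0.02 for all tested mRNA probes. ATF4 had 1.71 ± 0.16 (adjusted p = 5.76e-06, limma). The ATF3 probes lay on both sides of it, with 2.78 at A_23_P34915, 2.27 at A_33_P3214105, 1.37 at A_24_P33895 and -0.06 at A_33_P3214096. ATF1 (0.89), JUNB (0.88), FOSL1 (0.82), CREB3 (0.68) and MAFK (0.52) were the other bZIP genes called higher, and CREB3L2 had -1.57. At the 75th percentile limma called none of the 15, with ATF4 at 0.99 ± 0.71, ATF1 at 0.81, JUNB at 0.82, FOSL1 at 0.78, CREB3 at 0.63, MAFK at 0.43 and CREB3L2 at -1.74, and it called 20 of all tested probes higher and 24 lower. With no normalization 2 of the 15 were called higher and 1 lower, and with no filter on dim probes 2 higher. JUNB was also not called with quantile normalization of all probes together (0.79, adjusted p = 0.103, limma) or normexp correction (0.89, adjusted p = 0.0656). In the deposited table it gave 0.79 (adjusted p = 0.101) and was not called. CREB3 lost its call with the mean of control untranslated replicates 1 and 2 (0.63, adjusted p = 0.074, limma). When only the arrays compared were fitted, CREB3 (0.68, adjusted p = 0.0717) and MAFK (0.52, adjusted p = 0.069) were not called.

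Of 24 listed genes of the integrated stress response, 13 had a probe and 12 were tested. In total RNA 4 were called higher and 0 lower, against 4.70% and 3.26% of all tested probes, with a median of 0.11 against -0.02 for all tested mRNA probes. SESN2, a stress-induced sestrin, rose by 1.67 ± 0.17 (adjusted p = 1.44e-06, limma), SLC3A2, a subunit of amino acid transporters, by 0.87 ± 0.16, TRIB3, a pseudokinase, by 0.72 ± 0.14, and ATF4 as above. Toward the high pool ATF4, SESN2 (1.00) and NUPR1 (0.74) were called, and EIF2AK4 (-1.41), SLC7A11 (-1.34), ASNS (-1.04) and XPOT (-0.72) were called the other way. These 3 and 4 of 12 compare with 5.12% and 4.86% of all tested probes, and the median of the 12 was -0.00 against 0.02. At the 75th percentile limma called none of the 12 in either comparison, with SESN2 at 1.41 ± 0.48, SLC3A2 at 0.65 and TRIB3 at 0.53 in total RNA. In the shift ASNS had -1.53, EIF2AK4 and SLC7A11 had -1.44, XPOT -0.84, SESN2 0.90 and NUPR1 0.63 there. Without OS low replicate 3 limma called 1 lower in total RNA. With no normalization it called 2 higher and 2 lower in total RNA, without TRIB3 (0.43) and SLC3A2 (0.55). In the shift NUPR1 was not called with no normalization (0.57, adjusted p = 0.0728, limma). XPOT was not called there with no filter on dim probes (-0.72, adjusted p = 0.0647, limma).

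Of 25 listed genes of stress-activated MAP kinase signalling, 14 had a probe. GADD45G, a stress-inducible activator of these kinases, rose by 2.10 ± 0.34 in total RNA (adjusted p = 0.000368, limma) and DUSP8, a phosphatase that acts on them, by 0.59 ± 0.16. These 2 of 14 called higher and 0 lower compare with 4.70% and 3.26% of all tested probes, and without OS low replicate 3 limma called 2 lower. DUSP8 was not called at the 75th percentile (0.38), with no normalization (0.28) or with no filter on dim probes (0.59), whereas GADD45G was called in all 3. The second, dimmer probes of GADD45G (1.54, adjusted p = 0.163) and DUSP8 (0.75, adjusted p = 0.785) were not called. In the shift toward the high pool limma called 0 of the 14 (1 had an unadjusted p under 0.05), against 5.12% and 4.86% of all tested probes, and 1 higher and 1 lower without OS low replicate 3. The median was -0.10 in total RNA and 0.22 in the shift, against -0.02 and 0.02 for all tested mRNA probes.

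The profile of ATF3 over the 24 arrays was the mean of its 4 probes, each centred on its own mean. Its Pearson r with A_33_P3214105, A_24_P33895 and A_23_P34915 was 0.99 and with A_33_P3214096 0.30. Among the other catalog genes C11orf96 (0.95), ARC (0.95), UBD (0.93), SPRY2 (0.93) and FAM90A1 (0.93) were the most like it, and among the lncRNA transcripts ENST00000448587.1 (0.97), ENST00000561318.1 (0.97) and ENST00000596379.1 (0.96). These values carry the split between control and OS arrays. ARC and FAM90A1 were well above background on 17 of the 24 arrays, UBD and the 3 lncRNAs on 12, so their r rests in part on values near background. C11orf96 and SPRY2, above background on all 24, had r of 0.84 and 0.80 within the 12 control arrays and 0.09 and 0.76 within the 12 OS arrays. Within the OS arrays ARC had 0.62, UBD -0.13, FAM90A1 0.31 and the lncRNAs, in the order above, 0.68, 0.52 and 0.59. Within the control arrays, where their dim values lie, they had -0.20, 0.43 and -0.10, and 0.24, 0.43 and 0.21. Without OS low replicate 3, 2 of the 5 genes and 2 of the 3 lncRNAs were still among the most like, and at the 75th percentile 3 and 1.

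Of the probes with listed coordinates, 3 lay within 250 kb of an ATF3 probe. TATDN3, 195825 bases away, was well above background on all 24 arrays and differed by 0.24 ± 0.22 in total RNA (adjusted p = 0.737, limma), and its shift toward the high pool was 0.84 ± 0.30 (adjusted p = 0.0924). The other 2 probes, both of SPATA45 (C1orf227 in the array design), were well above background on 1 array and on 0 arrays and were not tested.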

How the data were processed

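The 24 arrays were 1-colour Agilent arrays scanned with Feature Extraction, whose deposited intensity values are background-subtracted processed signals. In the table deposited by the authors values are log2, and all of them lie within 0.05 of the processed signal after quantile normalization of all probes together, while the methods describe quantile normalization of coding and non-coding probes separately, which was the setting used here, and elsewhere normexp correction. The methods also remove replicates that fail to cluster, whereas all 24 arrays were kept here. Outlier marks removed 178 probes (none of ATF3), so that 43911 lncRNA and 17448 mRNA probes were used, and 0 values were saturated. All 4 ATF3 probes were well above background on all 24 arrays.

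limma 3.58.1 in R 4.3.3 was fitted over the 8 groups, testing the probes that in 1 or more of the compared groups were well above background on all 3 arrays. P-values were adjusted by Benjamini-Hochberg over lncRNA and mRNA probes together (threshold 0.05). Probe pairs were compared by exact permutation tests. The fit was tested on simulated data.

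Members and lists were chosen with earlier results of these data known. Named genes are the ATF3 probes, list genes called in total RNA or in the shift (1 probe per gene, the one with the highest mean), the 5 genes and 3 lncRNAs most like ATF3, and neighbours within 250 kb. The same label number is given to replicates 1 and 2 of control untranslated, which were kept as 2 replicates, although the labels do not show whether they are 1 preparation. The SD of their log2 difference was 0.935, against 0.979 and 0.932 for the other pairs of that group, which does not settle it. Their mean, other normalizations, filters, blocks for slide and replicate number, and leaving out each array were alternatives. The number of arrays limits the precision.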

Additional observations from a re-analysis of the deposited data

Results flagged for a closer look

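The effect of OS on ATF3 differed between pools by the test of the difference itself (limma). Between the high and the untranslated pool the difference was 2.27 at A_33_P3214105, 1.37 at A_24_P33895 and 2.78 at A_23_P34915. Between the low and the untranslated pool it was 1.59 at A_33_P3214105 and 1.42 at A_23_P34915. At the 75th percentile none of these shifts was called, and that from untranslated to low at A_23_P34915 was -0.56. When only the arrays compared were fitted, neither shift from untranslated to low was called. Further calls lost are given with the settings. Groups of 3 arrays were not tested for single arrays far from the others.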

How the results depend on the processing

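Of 1296 alternative values of the 36 ATF3 probe results (36 settings, 24 of them leaving out 1 array), 98 changed direction or call, and the cause was not tested. At A_33_P3214105, A_24_P33895 and A_23_P34915 the OS minus control differences in total RNA and every pool, and high minus untranslated upon OS, kept direction and call under all 36. All adjusted p are from limma.

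With all probes quantile normalized together, high minus untranslated in control cells was -0.45 at A_33_P3214105 (adjusted p = 0.125), 0.09 at A_33_P3214096, 1.09 at A_24_P33895 and 0.44 at A_23_P34915. At A_33_P3214096 the OS difference in the low pool was -0.25, high minus untranslated upon OS -0.03 and the shift from low to high 0.34. The shift from untranslated to high was 1.07 at A_24_P33895 (adjusted p = 0.0525), and that from untranslated to low 1.41 at A_33_P3214105 (adjusted p = 0.0508). The deposited table gave -0.45, 0.08, 1.09 and 0.44, then -0.25, -0.04 and 0.34, and 1.07 and 1.41, in the same order. Normexp background correction gave -0.38, 0.08, 0.68 and 0.43, then -0.05, -0.02 and 0.12, and a shift from untranslated to low of 1.14 at A_24_P33895 (adjusted p = 0.0211).

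With 75th percentile scaling high minus untranslated in control cells was 0.41, 0.47, 1.23 and 1.58, in the same order of probes. At A_33_P3214096 the other values were -0.20, 0.39 and 0.33 as above. The shift from untranslated to high was 1.99 at A_33_P3214105, 2.01 at A_24_P33895 and 1.29 at A_23_P34915, and that from untranslated to low 0.36 at A_33_P3214105 (adjusted p = 0.763) and -0.56 at A_23_P34915 (adjusted p = 0.644), and none of these 5 shifts was called. With no normalization high minus untranslated in control cells was 1.62, 1.68, 2.44 and 2.79, and 1.54 upon OS at A_33_P3214096. The shift from untranslated to low was 1.28 (adjusted p = 0.15), 0.51, 1.31 and 0.36 (adjusted p = 0.679), called at A_24_P33895 alone (adjusted p = 0.0495), and that from untranslated to high 1.23 at A_23_P34915, not called (adjusted p = 0.051).

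With no filter on dim probes A_33_P3214096 lost its calls for high minus untranslated in control cells (-0.82) and upon OS (-0.88), and the shift from untranslated to low lost them at A_33_P3214105 (1.59) and A_23_P34915 (1.42). Those 2 shifts also lost them when only the arrays compared were fitted (1.59 and 1.42), and the mean of control untranslated replicates 1 and 2 gave 1.28 at A_23_P34915 (adjusted p = 0.0658). The shift from low to high at A_23_P34915, 1.36, was called with the replicate block (adjusted p = 0.0335), a stricter filter (adjusted p = 0.0442) and an ordinary model (adjusted p = 0.0472). Pairing by replicate number was not used, since in no comparison were all correlations between pairs over 0.1. With slide as a block A_33_P3214096 in total RNA, 0.66, was called.

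Leaving out 1 array at a time, the shift from untranslated to low ran from 1.33 to 1.82 at A_33_P3214105 and from 1.22 to 1.66 at A_23_P34915. At A_23_P34915 the shift from low to high ran from 1.21 to 1.57, called without OS low replicate 1 and without control untranslated replicate 3, and high minus untranslated in control cells from -0.42 to 0.03. At A_33_P3214096 high minus untranslated ran from -1.05 to -0.64 in control cells, its call lost without replicate 2 or 3 of either pool, and from -1.09 to -0.72 upon OS, its call lost without OS untranslated replicate 1 or 2 or OS high replicate 3. Its OS differences ran from -0.04 to 0.39 in the untranslated pool and from -0.10 to 0.57 in the low pool, and its shifts from -0.43 to 0.22 (low to high), -0.26 to 0.16 (untranslated to high) and -0.28 to 0.37 (untranslated to low). Of 22 results of list genes under these settings (792 values), 0 changed direction and 76 lost the call, 21 results at the 75th percentile.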

Other observations

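In the processed signal before any scaling between arrays, ATF3 at A_23_P34915 read 762, 758 and 395 in the control untranslated pool and 9660, 5670 and 7310 in the OS untranslated pool, below the 4170, 4500 and 4050 of the control high pool and the 114000, 136000 and 111000 of the OS high pool. Untranslated arrays were thus dimmer for ATF3 in both conditions, and quantile normalization removed that gap in control cells (11.38 and 11.24 on the log2 scale) and not upon OS (14.55 and 17.18). At A_33_P3214096, the OS low pool read 624 and 385 in replicates 1 and 2 and 1120 in replicate 3, the array that stood apart, where normalization placed it lowest of the 3 (8.29, 8.02 and 7.00).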
